A study of Mus musculus with 3 samples.

Results

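The neuronal immediate early genes Fos, Fosb, Junb, Egr1, Egr2, Egr3, Npas4, Arc, Nr4a1 and Nr4a3 were examined for accessible chromatin in sorted mouse cortical projection neurons. Every ATAC-seq peak that touched the mm10 body of any of these 10 genes or the 50 kb on either side was taken, and overlapping peaks of the libraries were merged into regions. This gave 190 regions of 204313 in the whole series, from 111 of 98067 peaks in the CSMN library, 149 of 134018 in CPN 1 and 178 of 158779 in CPN 2. The 10 genes and their windows were named for their function, not picked by a peak value.

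ATAC-seq maps open DNA by the places where a transposase can insert adapters. Corticospinal motor neurons (CSMN), which project to the spinal cord, were represented by 1 library, and callosal projection neurons (CPN), which join the hemispheres, by 2 libraries. Each library came from 50000 viable cells sorted by FACS from mouse brain. Genotype, strain, age and the label used for sorting are not stated in the sources used here, and no treatment is named for either cell type. With 1 CSMN library no test between the cell types could be made, so values are given per library and the difference between CPN 1 and CPN 2 is the only spread between replicates.

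Immediate early genes are transcribed within minutes of synaptic activity without new protein synthesis. Calcium and kinase signals act on factors that are already bound, such as CREB at the cAMP response element (CRE) and serum response factor at the CArG box, both near the gene starts, and on enhancers that can lie far from the gene. Most of the products are transcription factors that drive a later set of genes, whereas Arc acts at the synapse.

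All 10 genes had a peak within 1 kb of a gene start in CSMN, CPN 1 and CPN 2. Over the protein-coding genes of the genome, 65.2% of 21887 had such a peak in all 3 lists. Gene starts came from RefSeq promoter entries for 7 of the genes. For Egr1, Egr3 and Arc, which had no entry there, either end of the gene body was accepted, as it was for other genes without an entry.

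Promoter sequence was at hand for those 7 genes, and 4 stretches are shown because they carry the CRE core, inside a peak of every library at Fos, Junb and Nr4a1 and inside the CPN peaks alone at Npas4. They are RefSeq sequences of GRCm38.p6 (mm10), written 5′ to 3′ on the strand of the gene and ending at the base before the listed start. Capitals mark the CRE core (TGACG, or CGTCA for the opposite strand) and, in Nr4a1, also the EGR site (GCGNGGGCG on the opposite strand). Fos lies on the plus strand at chr12:85473740-85473889, Junb on the minus strand at chr8:84978749-84978898, Npas4 on the minus strand at chr19:4989972-4990221 and Nr4a1 on the plus strand at chr15:101266596-101266845.
Fos: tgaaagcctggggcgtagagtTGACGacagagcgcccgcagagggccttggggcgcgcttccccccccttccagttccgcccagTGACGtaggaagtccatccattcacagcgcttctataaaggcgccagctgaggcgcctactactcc
Junb: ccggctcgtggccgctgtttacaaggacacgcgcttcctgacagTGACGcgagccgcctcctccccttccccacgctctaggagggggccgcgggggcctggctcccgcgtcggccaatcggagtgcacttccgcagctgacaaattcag
Npas4: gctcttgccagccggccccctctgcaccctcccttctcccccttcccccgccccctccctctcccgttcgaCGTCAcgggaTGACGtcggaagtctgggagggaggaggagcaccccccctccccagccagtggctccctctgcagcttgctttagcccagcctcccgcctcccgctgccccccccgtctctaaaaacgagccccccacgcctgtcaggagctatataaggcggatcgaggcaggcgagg
Nr4a1: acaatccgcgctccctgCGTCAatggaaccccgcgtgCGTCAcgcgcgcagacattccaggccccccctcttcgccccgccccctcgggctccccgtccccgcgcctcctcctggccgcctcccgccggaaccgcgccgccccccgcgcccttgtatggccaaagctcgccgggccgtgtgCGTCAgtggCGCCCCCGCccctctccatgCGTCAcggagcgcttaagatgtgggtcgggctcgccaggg

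The CRE core TGACG was found, on either strand, in the 250 bases before a start of all 7 genes with sequence, Fos, Fosb, Junb, Egr2, Npas4, Nr4a1 and Nr4a3. Of the 11 stretches of these genes, some of which overlap, 9 held it. It was present in 20.2% of 21263 such promoter stretches of protein-coding genes. The core nearest to the start began 66 bases before it in Fos, 60 in Fosb, 106 in Junb, 40 in Nr4a1 and 147 in Nr4a3. In Npas4 the cores began 179 and 169 bases before the start. The full CRE, TGACG followed by TCA, was in none of the 7 and in 1.92% of all stretches. Every full CRE also counts as a core.

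Other motifs of activity-dependent promoters were less frequent. Among the 7 genes with sequence, the CArG box was found at Egr2 alone, in 4 of its 5 listed promoter stretches, against 1.39% of all stretches. The search reached only 250 bases before a start. Sites farther from the start, and those of Egr1, Egr3 and Arc, which had no sequence, could not be found. The stretches before the starts at 67537869, 67537870 and 67537930 overlap and share a box, and the stretch before 67537566 holds another. The EGR site GCGNGGGCG stood before Fosb and Nr4a1, against 6.34% of all stretches. The AP-1 site TGANTCA and the MEF2 site were in none of the 7 genes, against 6.13% and 2.61% of all stretches. All motifs were searched on both strands. A match describes the letters of the reference and does not show binding.

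These CRE-bearing stretches lay inside peaks with an exception in CSMN. The peaks of CSMN, CPN 1 and CPN 2 each covered all 250 bases before the starts of Fos, Fosb, Nr4a1 and Nr4a3. At Junb they covered 250 bases in CSMN, 250 in CPN 1 and 238 in CPN 2. At Npas4 they covered 32 of the 250 bases in CSMN, against 250 in CPN 1 and 250 in CPN 2, so the Npas4 cores printed above were outside the CSMN peak and inside both CPN peaks. The stretch before the first listed start of Egr2, at 67535499, holds no CRE core. It had 0 bases in a CSMN peak, 143 in CPN 1 and 136 in CPN 2. The stretch before the start at 67537869, which holds the core, was covered over 250 bases in each library.

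The strength of a peak is given by the authors' fold enrichment at its summit over the local background. Folds of separate lists are not on a common scale, so each was also turned into a percentile among all peaks of its own list. Where a region holds several peaks of a library, the highest fold is given. The −log10 q, a measure of how far a peak exceeds its background given the reads in it, is given where it adds to the fold. The lists themselves differed. Their lengths are given above, the median fold was 2.86 in CSMN, 3.82 in CPN 1 and 3.68 in CPN 2, and a −log10 q of 5 was reached by 55.2%, 72.4% and 65.4% of the peaks. The number of reads per library is not stated in the sources used here. As a check of the labels, a peak at a gene start was counted for 22 markers of CSMN, CPN and excitatory neurons, of which 18 had it in CSMN, 20 in CPN 1 and 21 in CPN 2. The defining CSMN markers had it at 7 of 8 genes in each library, and 22 markers of astrocytes, oligodendrocytes, microglia, endothelial cells and interneurons had it at 15, 17 and 16 genes. Presence of a peak at a start therefore did not separate the labelled cell types from others, and the part of other cells in the values below was not tested.

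**Figure D1:**
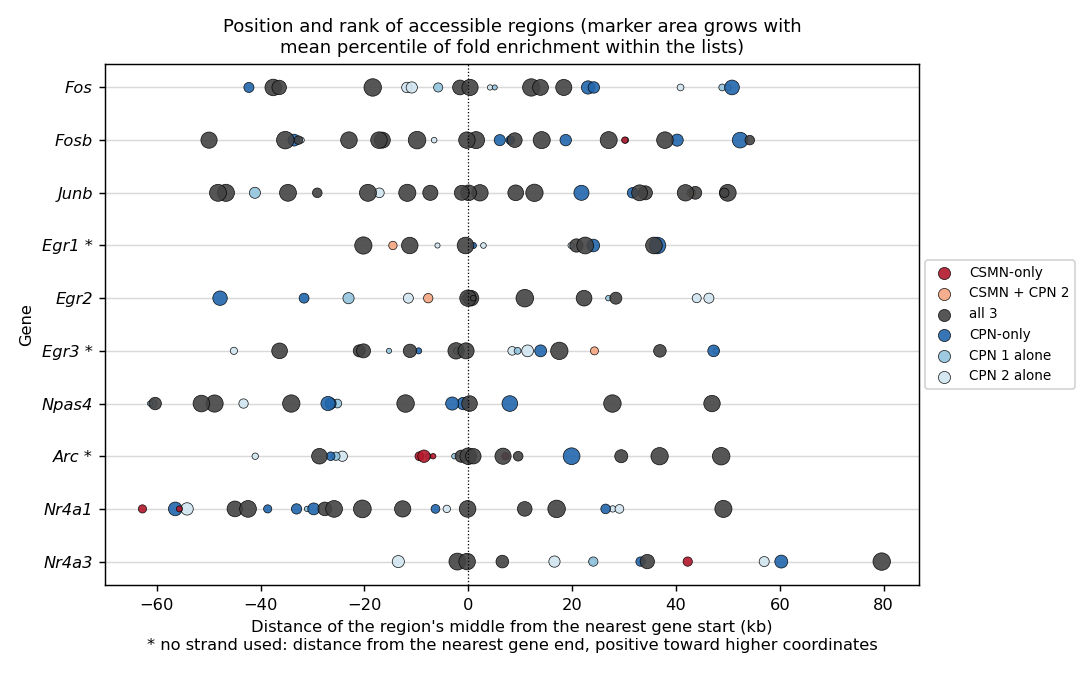
Position of all 190 accessible regions relative to the nearest listed gene start in kb (negative is upstream; for Egr1, Egr3 and Arc the nearest gene end and plain coordinates are used). Colour gives the libraries with a peak and marker area the mean percentile of fold enrichment; dark markers (peak in all 3 libraries) stand at every gene start and recur far into the flanks.

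Fos and Fosb encode partners in the AP-1 dimer, and Junb encodes a JUN-family partner for them. The Fos window (gene at chromosome 12, 85473890 to 85477274) held 20 regions and no other protein-coding gene. They came from 8 CSMN peaks, 15 CPN 1 peaks and 18 CPN 2 peaks. The region at the Fos start (85473406 to 85475034) had a fold of 5.23 in CSMN, 6.82 in CPN 1 and 7.90 in CPN 2. It was not the strongest of the locus in any library.

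A region 17.9 kb upstream of Fos (85454932 to 85456023) had a fold of 11.03 in CSMN, 15.3 in CPN 1 and 14.5 in CPN 2, at percentiles of 95.9, 94.99 and 94.9. A downstream region at 85485570 to 85486469, 11.7 kb from the start, had folds of 10.1, 14.2 and 13.5. Fos is known for several activity-regulated enhancers on either side of the gene, and 7 regions over 1 kb from its ends had a peak in all 3 libraries. Among these, the region at 85437169 to 85437748, 36.1 kb upstream, had a fold of 2.56 in CSMN against 6.12 in CPN 1 and 6.42 in CPN 2. The adjacent region at 85436028 to 85436597 had 5.24 in CSMN, 10.03 in CPN 1 and 7.92 in CPN 2. No region at Fos was found in CSMN without a CPN peak, and 4 were found in both CPN libraries without a CSMN peak.

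Fosb (chromosome 7, 19302696 to 19310118) had 24 regions in a gene-dense window that holds 7 other protein-coding genes. Its start region (19309983 to 19310640) had a fold of 6.13 in CSMN, 8.33 in CPN 1 and 7.42 in CPN 2. The highest-ranking region away from gene ends lay 9.41 kb upstream (19319460 to 19320373), with folds of 9.92, 17.6 and 18.7. In the gene body, a region at 19308176 to 19308923, 1.12 kb into the gene, had 7.98 in CSMN, 10.3 in CPN 1 and 10.4 in CPN 2 and so stood above the start region in every library. Fosb also had 6 regions that CPN 1 and CPN 2 shared and CSMN lacked, and all 6 had a −log10 q of at least 5 in both.

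Junb (chromosome 8, 84976909 to 84978748) had 24 regions, of which 18 had a peak in every library. The start region of Junb (84978371 to 84979025) had a fold of 3.70 in CSMN, against 6.73 in CPN 1 and 6.93 in CPN 2. The percentiles were 67.8, 77.3 and 80.5 in the full lists, and 67.8, 69.0 and 68.4 once the lists were cut to equal length, so the gap nearly closed at equal length. A region beside the other end of the gene (84976164 to 84976839) had a higher fold than the start, with 5.93 in CSMN, 7.71 in CPN 1 and 7.06 in CPN 2. Upstream, 19.1 kb from the start, the region at 84997831 to 84998331 had 5.29 in CSMN, 13.3 in CPN 1 and 12.5 in CPN 2. The Junb window holds 8 other genes, and 11 of its regions were at the ends of those genes.

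Egr1, Egr2 and Egr3 encode zinc finger factors that bind the EGR site. Egr1 (chromosome 18, 34861207 to 34864956) had 13 regions. The region that spans its lower-coordinate end (34859677 to 34861656) was 1980 bp wide, the widest of the 10 regions at starts, with folds of 6.08, 8.31 and 8.90 in CSMN, CPN 1 and CPN 2. Away from gene ends, the region at 34887050 to 34887896, 22.1 kb from the gene, had 4.60 in CSMN, 12.7 in CPN 1 and 13.0 in CPN 2. A further region at 34901118 to 34901683 had a peak in CPN 1 with a fold of 7.93 and in CPN 2 with 8.83, and none in CSMN. The region just before it, at 34900496 to 34900944, had a peak in all of them, at 6.20, 8.24 and 9.53.

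Egr2 (chromosome 10, 67534469 to 67542188) also has a role in myelinating glia. It had 16 regions, and 5 were within 1 kb of its 5 listed starts. The highest-ranking of these (67537037 to 67537956) had a fold of 5.41 in CSMN, 8.94 in CPN 1 and 6.75 in CPN 2. At 67535632 to 67536386 the folds were 4.07, 5.28 and 8.11, so CPN 1 and CPN 2 differed in which of these start regions was higher. Egr2 was the exception among the 10 genes in that no region away from gene ends had a higher mean percentile than its start. Its highest such region, 21.9 kb downstream (67559830 to 67560626), had 3.30 in CSMN, 7.93 in CPN 1 and 7.67 in CPN 2.

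Egr3 (chromosome 14, 70077317 to 70082613) had 20 regions, 18 of them away from gene ends. The region nearest to its lower-coordinate end (70076738 to 70077038, 279 bp from the gene) had a fold of 4.59 in CSMN, 7.12 in CPN 1 and 7.09 in CPN 2. Another 1.81 kb from that end (70074427 to 70075507) had 4.80, 8.76 and 7.76. At 70040745 to 70041174, 36.1 kb from the gene, the fold was 2.80 in CSMN, against 10.9 in CPN 1 and 9.16 in CPN 2. At equal list length this region stood at percentile 47.3 in CSMN, 86.0 in CPN 1 and 79.9 in CPN 2, the widest gap of that sign among the shared regions of the 10 genes. A neighbour at 70056733 to 70057532 stood at 30.9, 58.5 and 57.1.

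Npas4 encodes a bHLH-PAS factor that is induced selectively by neuronal depolarization and calcium entry. Its annotated body (chromosome 19, 4984353 to 5003439) extends well beyond the single listed start at 4989971. The window held 17 regions, and none of them was found in CSMN without a CPN peak. The region at the Npas4 start (4989084 to 4990387) had a fold of 3.62 in CSMN, 6.99 in CPN 1 and 6.39 in CPN 2. The matching −log10 q was 11.1 in CSMN, 49.1 in CPN 1 and 34.4 in CPN 2. The fold percentiles were 66.5, 78.5 and 77.9 in the full lists. At equal list length they were 66.5, 70.65 and 64.25, so CSMN lay between CPN 1 and CPN 2. These values belong to summits 811 bp inside the gene in CSMN and 768 bp inside in both CPN libraries. At the start itself CSMN had a separate peak (4989668 to 4990003) with a fold of 2.74 and a −log10 q of 5.24. CPN 2 also had a separate peak there (4989764 to 4990303), with 4.76 and 19.1, whereas a single CPN 1 peak spanned both places.

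Upstream of that start but within the annotated body, 11.7 kb away and 1024 bp from the upstream end of the body, the region at 5001696 to 5002415 had folds of 9.01, 18.1 and 16.99. Between these, CPN 1 and CPN 2 each had a peak at 4990794 to 4991069, with folds of 3.52 and 3.44, and at 4992933 to 4993210, with 3.07 and 4.95, where CSMN had none. A narrow downstream region of 155 bp at 4981895 to 4982049, also without a CSMN peak, had 6.13 in CPN 1 and 5.99 in CPN 2.

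Arc encodes a cytoskeleton-associated protein that removes AMPA receptors from synapses. At its higher-coordinate end (gene at chromosome 15, 74669081 to 74672570) the region at 74672120 to 74672986 had a fold of 5.46 in CSMN, 8.58 in CPN 1 and 9.29 in CPN 2. The summits of CSMN, CPN 1 and CPN 2 fell within 1 bp of each other there. Arc is known for a synaptic activity-responsive element several kilobases upstream. On the side of higher coordinates, a region at 74678986 to 74679535, 6416 bp from the gene, had 4.11 in CSMN, 8.82 in CPN 1 and 7.44 in CPN 2. Whether any of the regions holds that element was not tested. A narrow region of 157 bp at 74692388 to 74692544, 19.8 kb from the gene, had a peak of 8.21 in CPN 1 and 10.7 in CPN 2 and none in CSMN, the highest-ranking region away from gene ends at Arc.

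Arc was the only one of the 10 genes with more CSMN-only than CPN-only regions, 4 against 2, and 9 had more CPN-only regions. Over all protein-coding genes, 19.5% had more CSMN-only and 55.9% more CPN-only regions. At equal list length 2 of the 10 genes had more CSMN-only and 6 more CPN-only regions. The share of all genes at that length was not counted. Among regions near all genes, CSMN-only ones then outnumbered CPN-only ones, 22038 against 18447 of 112690. In the windows of the 10 genes they numbered 15 against 24 of 147. CSMN-only means that CSMN has a peak and neither CPN list does, and CPN-only that CPN 1 and CPN 2 each have one and CSMN does not. The 4 CSMN-only regions at Arc had folds of 2.32, 2.71, 2.04 and 2.19, and the highest −log10 q among them was 4.96. That balance was not stable. Without CPN replicate 2 the difference of CSMN-only minus CPN-only regions was -1, and without CPN replicate 1 it was 0. When peaks under a −log10 q of 5 were dropped it was -3, and with windows of 100 kb on each side it was 0. It stayed above 0 in other settings, at 3 with lists of equal length, 2 with a larger overlap and 4 with windows of 10 kb.

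Nr4a1 and Nr4a3 encode orphan nuclear receptors that bind DNA without a classical ligand. Nr4a1 (chromosome 15, 101253902 to 101274795) had 23 regions. The start region (101266218 to 101267197) had a fold of 4.73 in CSMN, 9.12 in CPN 1 and 11.04 in CPN 2. By mean percentile the highest-ranking region of all 190 lay 20 kb upstream of that start (101246048 to 101246823), with folds of 13.2, 22.8 and 22.5 and percentiles of 97.9, 99.0 and 98.9. In each of the 10 Nr4a1 regions shared by all libraries the CSMN percentile was below both CPN percentiles with the full lists. Over all genes this was so for 64.7% of shared regions. At equal list length it held for 7 of 10 at Nr4a1, against 38.3% over all genes, with 1 above both, against 43.8%. Nr4a1 was not alone in this. With the full lists the CSMN percentile was below both in 8 of 8 shared regions at Egr3 and in 7 of 8 at Npas4. At equal list length it was so in 4 of 8 at each of these genes.

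Nr4a3 (chromosome 4, 48045078 to 48086447) had 13 regions, among the fewest. Its start region (48044545 to 48045608) had a fold of 5.48 in CSMN, 8.58 in CPN 1 and 8.39 in CPN 2, with the summit at the same base in all of them. It also had the highest −log10 q of the 10 start regions, 84.2 in CSMN, 302 in CPN 1 and 232 in CPN 2. The region 1.57 kb upstream (48042671 to 48043739) had higher folds still, 7.35, 10.03 and 9.11. With the full lists the CSMN percentile was below both CPN percentiles in 4 of the 5 shared regions of Nr4a3 and above both in 1. Over all genes these shares were 64.7% and 18.9%. At equal list length the CSMN percentile was above both in 5 of 5, against 43.8% of shared regions over all genes, so the direction at Nr4a3 depends on list length.

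For 9 of the 10 genes a region over 1 kb from every protein-coding gene end had a higher mean percentile than the region at the gene's own start. Over all protein-coding genes with both kinds of region this was so for 36.5% of 15752. For 7 of them, Fos, Fosb, Junb, Egr3, Npas4, Nr4a1 and Nr4a3, it was higher in CSMN, CPN 1 and CPN 2 alike, against 17.7% of all genes. At Egr1 it was higher in both CPN lists, at percentiles of 92.5 and 93.5 against 83.6 and 86.9 at the start, and lower in CSMN, at 77.1 against 85.4. At Arc the region was the CPN-only one described above, which has no CSMN value, stood at 83.3 in CPN 1, below the start at 84.5, and at 90.5 in CPN 2, above the start at 87.9. Its mean is over 2 lists and that of the start over 3. The count rests on the distance limit. With regions over 2.5 kb from gene ends it was 6 of 10 genes, against 34.4% of all genes, since the Egr3 and Nr4a3 regions lie within that distance of a gene end, as does the Npas4 region, 1024 bp from the upstream end of the annotated body. The highest of several regions was set against a single start, so this count has no test.

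The starts themselves ranked below those of most genes by fold. Taking the highest start region of each gene in each library, the median percentile of the 10 genes was 81.9 in CSMN, 83.7 in CPN 1 and 84.5 in CPN 2. Over all protein-coding genes with a peak at a start it was 90.8, 92.9 and 93.5, and none of the 10 genes reached that median in any library, also at equal list length, where the 10 genes had medians of 81.9, 77.7 and 74.9 and all genes 90.8, 90.85 and 90.4. By −log10 q the gap was smaller, with medians of 86.9, 91.96 and 93.8 for the 10 genes against 91.2, 93.8 and 94.5 for all genes. Egr1 and Nr4a3 exceeded the median of all genes by −log10 q in every library, and Nr4a1 in CPN 2. The start regions were not narrow, with a median width of 950 bp against 990 bp over all genes. The fold is a ratio to the local background, and the part of that background in the ranks was not tested.

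**Figure D2:**
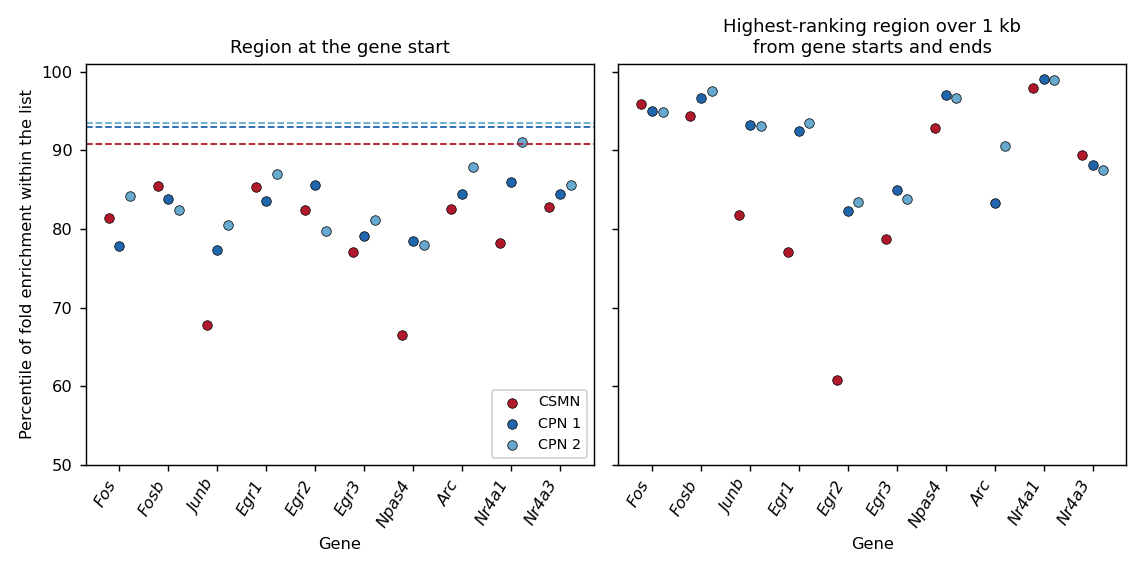
Percentile of fold enrichment within each library's own list, for the region at the gene start (left) and the highest-ranking region over 1 kb from gene starts and ends (right). Dashed lines mark the median over all protein-coding genes with a peak at a start (90.8 in CSMN, 92.9 in CPN 1, 93.5 in CPN 2); all points on the left lie below the line of their library, and Arc has no CSMN point on the right because that region had no CSMN peak.

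Sharing of regions between libraries was counted next. Of the 190 regions 92 had a peak in all 3 libraries, or 48.4% (Wilson 95% interval 41.4 to 55.5, counting error only), against 31.6% of the 162872 regions within 50 kb of any protein-coding gene. CSMN-only regions numbered 9, or 4.74% (2.51 to 8.76), against 9.94% for all genes. CPN-only regions numbered 37, or 19.5% (14.5 to 25.7), against 19.8%, so the CPN-only share was near that background. A further 18 regions were in CPN 1 alone, or 9.47%, against 13% for all genes. In CPN 2 alone there were 30, or 15.8%, against 21.6%. These counts give the scale of difference between libraries of the same cell type. Regions shared by CSMN and CPN 2 without CPN 1 numbered 4, and 0 joined CSMN to CPN 1 without CPN 2. Without CPN replicate 1, when a peak in the remaining CPN list was enough, CPN-only regions numbered 67. The share over all genes under that rule was not counted.

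Part of the sharing came from gene ends, including those of neighbours. Of the 42 regions at the ends of other genes 30 were in every library, or 71.4%, near the 67.7% of regions at any gene end over all genes. Of the 65 regions at any gene end 10 were CPN-only, or 15.4%, against 9.14% over all genes. CSMN-only ones numbered 2, or 3.08%, against 4.68%. Away from all gene ends 125 regions remained, of which 46 were shared by all libraries, or 36.8% (28.9 to 45.5), against 25.4% over all genes. In this set 7 regions were CSMN-only, or 5.60% (2.74 to 11.1), against 10.8%, and 27 were CPN-only, or 21.6% (15.3 to 29.6), against 21.6%. The last count was 54 without CPN replicate 1 and 42 without CPN replicate 2, again with no share counted over all genes. The windows were richer in regions than most, with a median of 20 per gene against 14 over all genes, and the regions of a window share its local background and are not independent of each other.

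**Figure D3:**
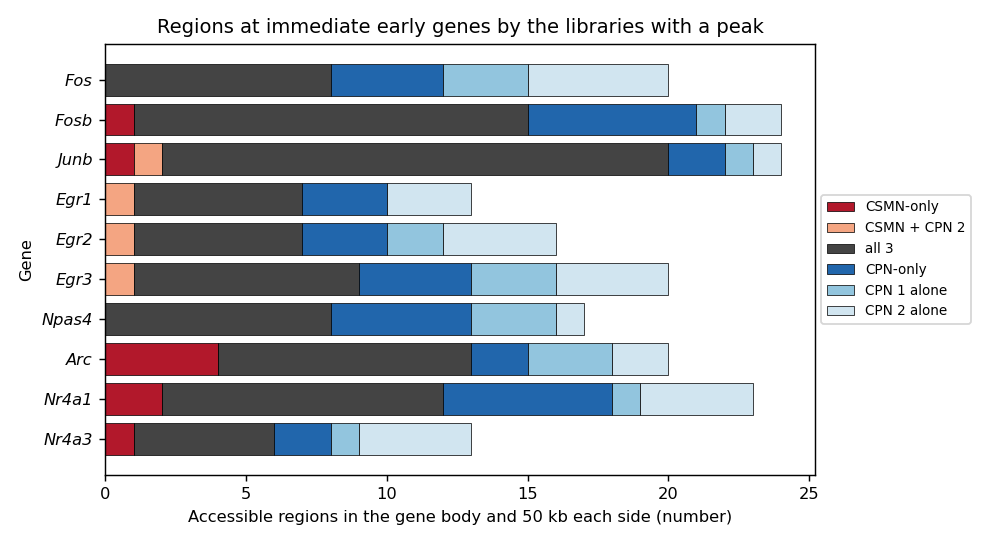
Number of accessible regions in the body and 50 kb flanks of each gene, stacked by the libraries with a peak in the region. Junb had the largest number shared by all libraries (18 of 24), and Arc the largest number of CSMN-only regions (4 of 20).

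Regions of a single cell type differed in strength between the classes, which are not defined alike. CPN-only asks for a peak in both CPN lists, and CSMN-only for a peak in a single list. None of the 9 CSMN-only regions reached a −log10 q of 5, where such regions made up 1.26% of all regions near genes, and over all genes 12.7% of CSMN-only regions did. Their folds ran from 1.96 to 2.71 with a median of 2.19. Of the 37 CPN-only regions 24 reached a −log10 q of 5 in both CPN lists, and such regions made up 11.8% of all regions near genes. As a share of CPN-only regions this was 64.9%, near the 59.8% over all genes. CPN-only folds ran from 1.89 to 8.21 in CPN 1 and from 2.23 to 10.7 in CPN 2. The single-type regions were narrow, with a median width of 151 bp for CSMN-only and 247 bp for CPN-only, against 701 bp for regions shared by all libraries. Over all genes these medians were 176, 283 and 590 bp. The CSMN list held a smaller share of peaks at that threshold over the whole genome, as given above.

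The window of each of the 10 genes held at least 1 of the 24 stronger CPN-only regions. How many of all genes have such a window was not counted, so this does not set the 10 genes apart. The 24 were part of 190 regions, and each window held 13 to 24 regions. Such regions made up 11.8% of all regions near genes. The Fosb window held 6, that of Npas4 4, those of Egr1 and Nr4a1 3 each, Fos and Egr3 2 each, and Junb, Egr2, Arc and Nr4a3 1 each. Some lay at the ends of neighbours, as did the only one of Junb (84956847 to 84957055, at Rnaseh2a and Rtbdn). So did a Fosb one at Ercc1 (19343564 to 19343694). By mean percentile the highest were those at Arc and Egr1 described above, followed by 75.2 for a region at the ends of Vasp and Gm38499 in the Fosb window (19257449 to 19257899) and 74.8 for the downstream region of Npas4. Nr4a1 had a CPN-only region 56.4 kb upstream of the start (101210331 to 101210471) that reached 5.55-fold in CPN 1 and 3.35-fold in CPN 2.

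Regions shared by all libraries near the 10 genes had median percentiles of 78.1 in CSMN, 84.0 in CPN 1 and 84.5 in CPN 2, against 67.8, 76.1 and 79.5 over all genes. Of these, 46 of 92 were at gene ends, against 16054 of 51457 over all genes. At gene ends the medians were lower than over all genes, at 82.45, 85.76 and 88.01 against 87.94, 90.94 and 92.05. Away from gene ends they were higher, at 67.88, 80.39 and 81.54 against 58.87, 69.84 and 73.68. The balance between CSMN and CPN ranks was near that of all genes when every difference was counted. With the full lists, 61 of 92 ranked lower in CSMN than in both CPN lists, or 66.3%, against 64.7% over all genes, and 18 ranked higher than in both, or 19.6%, against 18.9%. With a gap of over 10 percentile points, 19 ranked lower than in both, or 20.7%, against 30.4% over all genes, and 2 ranked higher, or 2.17%, against 4.67%. The share that ranked lower by this gap was 10.9% at gene ends, against 12.7% over all genes. Away from gene ends it was 30.4%, against 38.4%. The full lists differ in length. At equal length 33 of 86 ranked lower in CSMN, or 38.4%, against 38.3%, and 37 ranked higher, or 43.0%, against 43.8%. The median difference of CSMN minus the mean of the CPN lists was -4.67 percentile points with the full lists and 1.03 at equal length, so its direction turned. The median of CPN 1 minus CPN 2 was -1.06 with the full lists and 0.72 at equal length.

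Single regions differed by more at equal length. In addition to the Egr3 regions, the Fos region 36.1 kb upstream stood at 35.3 in CSMN, against 64.1 in CPN 1 and 64.4 in CPN 2. A region beside Jrk in the Arc window (74701814 to 74702258) stood at 18.1, against 45.7 and 49.97. In the other direction, regions of the Junb window at 84934876 to 84935156 and 84944432 to 84944842 stood at 53.25 and 67.04 in CSMN, against 23.25 and 38.1 in CPN 1 and 9.49 and 23.4 in CPN 2. CPN 1 and CPN 2 were also apart at these Junb regions, by 13.8 and 14.7 points. These were picked as the widest gaps after their values were seen.

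**Figure D4:**
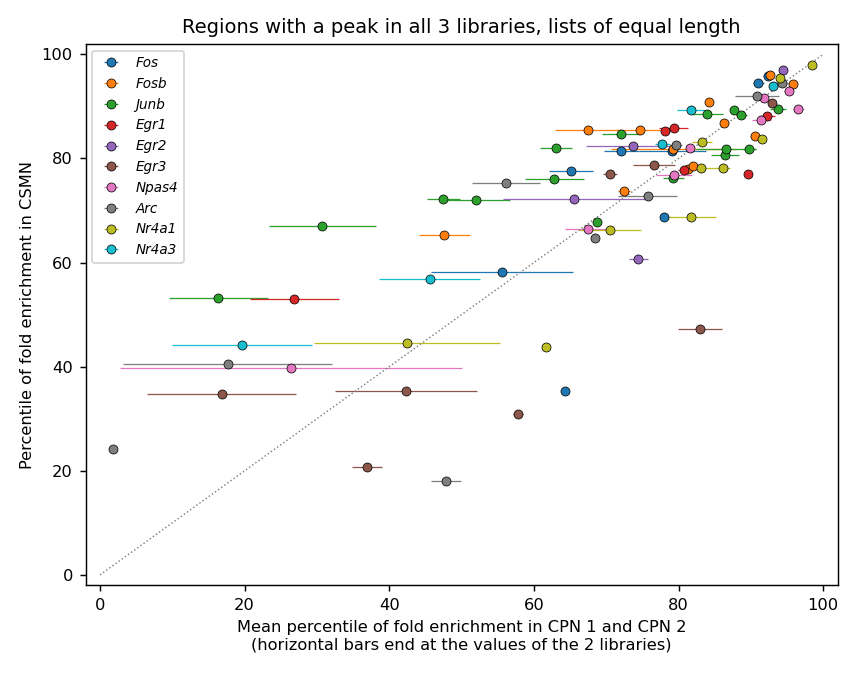
Percentile of fold enrichment in CSMN against the mean of CPN 1 and CPN 2 for the 86 regions with a peak in all 3 libraries at equal list length, coloured by gene; horizontal bars end at the CPN 1 and CPN 2 values and the dotted line marks equal percentiles. High-ranking regions lie along the line, and the widest departures below it are regions of Egr3, Arc and Fos.

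Summits were nearly in register between the cell types. Over the 92 shared regions the median distance between summits was 34.5 bp for CSMN and CPN 1, 37.5 bp for CSMN and CPN 2 and 21.0 bp for CPN 1 and CPN 2. Over all genes the same medians were 34.0, 37.0 and 22.0 bp. At the Egr1 start, where the region is broad, the CSMN summit lay 103 bp from the gene end and the highest CPN 1 and CPN 2 summits both lay 1222 bp from it. CPN 2 also had a separate peak (34860428 to 34861385) nearer to the gene end, with a fold of 6.67. At the Fos start the CPN 1 summit was the one apart, 324 bp upstream, with CSMN at 7 bp and CPN 2 at 4 bp.

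Other activity-regulated genes gave a frame for these values. From a list of 28, which holds Jun, Atf3, Bdnf and Homer1 among others, all 28 had a peak at a start in CSMN, CPN 1 and CPN 2, against 65.2% of all genes. Their median start percentile was 89.7 in CSMN, 89.3 in CPN 1 and 90.4 in CPN 2, against 90.8, 92.9 and 93.5 over all genes. Their windows held 419 regions, of which 39.4% were shared by all libraries, 8.83% were CSMN-only and 21.0% were CPN-only, against 31.6%, 9.94% and 19.8% over all genes. CPN-only regions outnumbered CSMN-only regions at 20 of these 28 genes and the reverse was found at 6, against 55.9% and 19.5% of all genes.

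The 4 of them with the largest difference all had more CPN-only regions. Sik1, a salt-inducible kinase gene, had 1 CSMN-only and 10 CPN-only regions. Gadd45b, which encodes a stress-induced factor linked to DNA demethylation, had 0 and 8, and the antiproliferative factor gene Btg2 had 0 and 7. Maff, which encodes a small MAF protein, had 2 and 7. Egr4, the other EGR gene in that list, had a start percentile of 35.7 in CSMN, against 71.8 in CPN 1 and 77.7 in CPN 2.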

How the data were processed

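Peak lists of 1 CSMN and 2 CPN libraries were used as deposited, in mm10 coordinates. BWA 0.7.17, MACS2 2.2.7.1 and bedtools 2.29.2 are listed, with no role given, per the submitters' processing notes. Read filters and the caller's mode are not stated in the sources used here. Peak names carry a single library name, so the deposited peaks were taken as called per library. The deposited columns are a fold enrichment (ratio) at the summit, a −log10 p, a −log10 q, a score and the summit offset in bp. The deposited score was within 1 of 10 times the −log10 q, cut to a whole number, in every peak. The lowest deposited −log10 q was 1.30.

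Genes came from RefSeq for GRCm38.p6 (21887 protein-coding), and starts from promoter entries for 17492 of them. Peaks overlapping by at least 1 bp were merged, and the merging was tested on simulated lists and differed from bedtools 2.31.1 at 0 regions. Percentiles rank the fold within its list. Python 3.11.15 and numpy 2.4.6 were used. No test between cell types was run, as CSMN has 1 library. The labels speak of biological replicates without saying whether they came from separate animals. The alternatives were a −log10 q of at least 5, lists cut by −log10 p to the CSMN length, other overlaps and windows, a gene end distance of 2.5 kb and leaving out either CPN library.

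All 10 genes were named. The regions given in full were the one at each start and the highest-ranking one away from gene ends. Of the 24 stronger CPN-only regions only some were named singly, so these are not a full set. The others were given as counts per gene. Further regions were added after their values were seen. From the list of 28 activity genes the 4 with the largest difference were named, and Egr4 was added after its values were seen. The genes, lists and windows were chosen with earlier results of these data known. The 10-point gap was also set after the data were seen.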

Additional observations from a re-analysis of the deposited data

How the results depend on the processing

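A peak at a start in all 3 libraries held for all 10 genes under the 3 settings tried for it, the stricter −log10 q, lists of equal length and a gene end distance of 2.5 kb. Asking for a larger overlap, of the shorter peak by its greater part, gave 91 shared, 12 CSMN-only and 38 CPN-only regions. When peaks under a −log10 q of 5 were dropped, CSMN-only regions numbered 1, and 0 away from gene ends. At equal list length, which trims the CPN lists alone, they numbered 15, and 11 away from gene ends, and CPN-only regions numbered 24, of 147 regions. Over all genes, CSMN-only regions numbered 22038 and CPN-only regions 18447 of 112690 at that length. The median percentile difference turned to 1.03 and Junb turned to 1 more CSMN-only than CPN-only region. With windows of 10 kb each side, 36 regions were shared by all libraries and 11 were CPN-only, from 45 CSMN, 56 CPN 1 and 64 CPN 2 peaks, and Junb again stood at 1. With windows of 100 kb there were 149 shared, 22 CSMN-only and 67 CPN-only regions. Counting only regions over 2.5 kb from gene ends left 30 shared ones, and 6 genes with such a region above the start (an alternative chosen after seeing the data). Leaving out either CPN library gave 55 to 67 CPN-only regions, 42 to 54 away from gene ends, and a balance at Arc of -1 to 0. Arc stood at -3 when peaks under a −log10 q of 5 were dropped, 3 at equal list length, 2 with the larger overlap and 4 with windows of 10 kb. No paired analysis was possible because the groups share a single replicate number. The peak lists carry no read counts, so a missing peak is not evidence of closed chromatin, and the single CSMN library has no replicate.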

Other observations

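From a list of 10 factors that act on immediate early gene promoters, Srf, Creb1, Elk1, Elk4, Mef2a, Mef2c, Mef2d, Crtc1, Crebbp and Ep300, all had a peak at a start in CSMN, CPN 1 and CPN 2, against 65.2% of all genes. Their median percentile was 92.8 in CSMN, 93.3 in CPN 1 and 94.0 in CPN 2, near the medians of all genes with a start peak, 90.8, 92.9 and 93.5. Creb1, which encodes the CRE-binding factor, stood at 98.0 in CSMN, 98.6 in CPN 1 and 98.5 in CPN 2, and Srf, which encodes the CArG box factor, at 92.5, 90.5 and 91.3. Their windows held 198 regions, of which 39.9% were shared by all libraries, 8.08% were CSMN-only and 17.2% were CPN-only, against 31.6%, 9.94% and 19.8% over all genes. Mef2d was the gene of this list with more CSMN-only than CPN-only regions, 5 against 3.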
